A study of Homo sapiens with 7 samples.

Results

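FOXP1, FOXP2 and FOXP4 are 3 of the 19775 genes measured in this set of Panc1 arrays, and 19 of its 54613 tested probe sets are annotated to one of them alone. There were 8 such probe sets for FOXP1, 9 for FOXP2 and 2 for FOXP4, and 0 probe sets with several symbols named one of them. The genes were chosen with earlier results of these arrays known, namely the higher level of FOXP1 on arrays labelled S100P overexpressing. The FOXP1 values of that comparison are therefore given as a description, with no test. FOXP2 and FOXP4 were taken as its close relatives.

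FOXP proteins are forkhead transcription factors that bind DNA as dimers, with themselves or with each other, and mostly repress transcription. FOXP1 acts in B and T cells, heart, lung and brain, and its pre-mRNA is alternatively spliced. FOXP2 is known for its part in speech and in brain and lung development, and FOXP4 overlaps with both in lung and gut. In the mouse pancreas the 3 genes act together in glucagon-producing alpha cells of the islets.

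Panc1 is an established human pancreatic ductal cancer cell line. Per the labels, single-cell clones were isolated after stable introduction of an expression vector, pcDNA3.1/V5-His, with or without S100P, a small calcium-binding protein. The study sought genes that S100P regulates. Clones labelled S100P overexpressing, which carry pcDNA3.1/S100P-V5-His, gave 4 arrays, 2 of clone 1 and 2 of clone 5, and clones with the control vector gave 3 arrays, 2 of clone V3 and 1 of clone V1. All cells were grown in DMEM with 10% FBS. Arrays of a clone are called a and b after their labels, and the labels do not say whether these were separate cultures. The spread behind each p-value may thus be technical. Each arm rests on 2 single-cell clones. In a difference between the arms, what clones differ in by chance and what the S100P vector does thus cannot be told apart. In bulk RNA, fewer cells expressing a gene and less RNA per cell cannot be told apart either.

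Values are deposited RMA values read as log2 units. The array medians lay between 4.51 and 4.58, and a probe set below its array's median is called dim here. Levels of different probe sets are not set against each other. Arrays of one clone correlated across probe sets at r = 0.996 to 0.998, and arrays of different clones at 0.982 to 0.995. S100P itself, the check of the labels, had 5.80 and 5.95 on clone 1 and 5.36 and 5.45 on clone 5, against 5.65 and 6.01 on V3 and 4.65 on V1. The arms overlapped, and the log2 difference was 0.27 (SE 0.32, 95% interval -0.46 to 1.00, limma adjusted p = 0.846). It was -0.19 without V1. Probe set 204351_at, which gave these values, thus shows no detectable excess of S100P mRNA under the S100P label. Whether it reads the S100P sequence of the vector was not tested, since probe positions were not used. Below, "S100P arrays" means arrays so labelled. The description field of V1 also carries another prefix than those of the other 6 arrays.

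Of the markers of other cell types, those dim on all arrays were 3 of 6 for leukocytes (PTPRC, MS4A1 and LYZ), 3 of 5 for endothelial cells (CDH5, VWF and KDR) and 4 of 6 for fibroblasts (COL1A2, COL3A1, DCN and LUM). ITGAM of leukocytes, PECAM1 of endothelial cells and COL1A1 of fibroblasts were above the median on all 7 arrays, and CD3E of leukocytes on 5. Summed over the 6 leukocyte markers measured, the level was 23.1 to 24.7 on S100P arrays and 23.7 to 24.1 on vector arrays. The 5 endothelial markers summed to 19.7 to 21.3 on S100P arrays and 19.9 to 20.4 on vector arrays, and the 6 fibroblast markers to 26.0 to 27.2 on S100P arrays and 25.6 to 26.2 on vector arrays. Of 10 ductal and epithelial markers measured, 7 were above the median on all arrays, and only CFTR was below it on all. Their summed level was 83.2 to 87.1 on S100P arrays and 84.1 to 87.9 on vector arrays. The label of a ductal cancer line was thus met by most of its markers. The sum hides members that went opposite ways between the arms. Differences were 2.23 at CDH1 and 0.91 at SOX9, against -0.95 at KRT8 and -0.87 at KRT7. CDH1 also differed between vector clones, with 3.83 on V1 against 6.17 and 6.36 on V3. The 7 mesenchymal markers summed to 41.4 to 44.2 on S100P arrays and 43.8 to 44.0 on vector arrays. By limma none of these markers passed the test between the arms, and 5 of the ductal and epithelial ones had an unadjusted p under 0.05. Of all 54613 probe sets tested, 6468 had such a p between the arms, 8323 in clone 5 minus clone 1 and 10883 in V1 minus V3. Counts of unadjusted p below are to be read beside these. Between the S100P clones, where 2.19% of all probe sets passed, 5 of these markers did. Clone 5 was higher than clone 1 at the epithelial keratins KRT8, KRT18 and KRT19 by 1.15, 0.69 and 1.32 (limma adjusted p = 0.011, 0.0157 and 0.00215), and at the leukocyte marker CD14 by 0.74 (adjusted p = 0.0156). The difference at the mesenchymal cadherin CDH2 was -2.13 (adjusted p = 0.000959). The other ductal and epithelial markers went both ways without passing. Below 0 were EPCAM at -0.43, CDH1 at -0.36, CFTR at -0.20 and SOX9 at -0.16 (adjusted p = 0.0791, 0.151, 0.598 and 0.625). Above 0 were CA2 at 1.09, KRT7 at 0.27 and MUC1 at 0.09 (adjusted p = 0.0701, 0.474 and 0.735). On leaving out a single array from among the 6 of clones 1, 5 and V3, no probe set of all passed in this contrast.

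FOXP1 lies on the minus strand of human chromosome 3, FOXP2 on the plus strand of chromosome 7 and FOXP4 on the plus strand of chromosome 6. RefSeq on GRCh38.p14 gives FOXP1 6 windows of 300 bases around an annotated start, with 250 bases before it and 50 after, whose starts span 519 kb. FOXP2 has 2 such windows and FOXP4 has 1. The windows were searched on both strands for TGTTTAC, a forkhead core motif, and for TATTTAT, a motif described for FOXP proteins. The motifs cannot match at the same position, though a window can hold both. Of all 35116 windows of this length, 3.42% held TGTTTAC, 4.93% held TATTTAT and 8.0% held either. Among the FOXP1 windows 2 of 6 held one, and the 2 are shown because they are the FOXP1 starts with letters of its own family's motif. They also differ in base composition, with a GC content of 75.0% in the first, at chr3:71583679-71583978, and 45.7% in the second, at chr3:71245028-71245327. Both are given 5′ to 3′ on the minus strand with the motif in capitals. The one called first is first among the 6 windows only. Its annotated start, 71583728, lies inside the gene, whose 5′ end is at 71583978. Both FOXP2 windows also lie inside their gene, with starts at 114414815 and 114426502 in a gene beginning at 114086327.
FOXP1 first start, TATTTAT at position -26 from the start: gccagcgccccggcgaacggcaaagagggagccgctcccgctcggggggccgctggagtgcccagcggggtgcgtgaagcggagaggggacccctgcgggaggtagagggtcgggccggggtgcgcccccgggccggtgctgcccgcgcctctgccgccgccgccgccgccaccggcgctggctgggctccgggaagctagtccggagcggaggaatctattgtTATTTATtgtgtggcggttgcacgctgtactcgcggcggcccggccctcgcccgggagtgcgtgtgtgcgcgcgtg
FOXP1 internal start, TGTTTAC at position -193 from the start: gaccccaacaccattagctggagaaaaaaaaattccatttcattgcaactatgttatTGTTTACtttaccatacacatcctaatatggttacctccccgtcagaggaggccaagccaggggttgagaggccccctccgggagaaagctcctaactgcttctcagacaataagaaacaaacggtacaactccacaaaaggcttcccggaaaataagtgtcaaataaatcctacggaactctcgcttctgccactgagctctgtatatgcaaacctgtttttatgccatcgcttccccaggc
In the one FOXP2 window with a motif, at chr7:114414565-114414864, TATTTAT was at position -8 from the start. The FOXP4 window held neither motif. A match in letters is no site of binding. The arrays assign no signal to any of these starts, and probe positions were not used here.

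FOXP1 was high on all S100P arrays at 3 of its 8 probe sets and dim on all arrays at the other 5. Probe set 224837_at, the one of highest mean, had 8.06 and 8.01 on clone 1 and 7.06 and 7.39 on clone 5, against 4.94 and 4.97 on V3 and 4.32 on V1. Its mean was 7.63 ± 0.49 on S100P arrays and 4.74 ± 0.37 on vector arrays (SD, n = 4 and 3 arrays). The lowest S100P array, clone 5 array a, stood 2.09 log2 units above the highest vector array, V3 array b. The difference between the arms was 2.92 (SE 0.28, 95% interval 2.29 to 3.55), a 7.57-fold higher level. Without V1 the difference was 2.67.

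Probe set 223287_s_at had 7.50 and 7.52 on clone 1 and 6.74 and 7.04 on clone 5, against 3.99 and 4.03 on V3 and 4.19 on V1. Its mean was 7.20 ± 0.38 on S100P arrays and 4.07 ± 0.11 on vector arrays, with a gap of 2.54 between the arms. The difference was 3.11 (SE 0.20, 95% interval 2.67 to 3.56), or 8.66-fold. Probe set 224838_at had 6.61 and 6.38 on clone 1 and 6.19 and 5.92 on clone 5, against 4.0 and 4.23 on V3 and 3.66 on V1. Its mean was 6.28 ± 0.29 on S100P arrays and 3.96 ± 0.29 on vector arrays, with a gap of 1.69. The difference was 2.34 (SE 0.20, 95% interval 1.89 to 2.79), or 5.07-fold. At both probe sets all vector arrays were dim, so the size of these folds is open, since RMA can compress differences at dim signals. All S100P arrays exceeded all vector arrays at 6.74% of the probe sets tested, and 1.12% passed the test between the arms in either direction. Because FOXP1 was chosen by this comparison, nothing is read from its 3 of 8 against these shares.

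**Figure D1:**
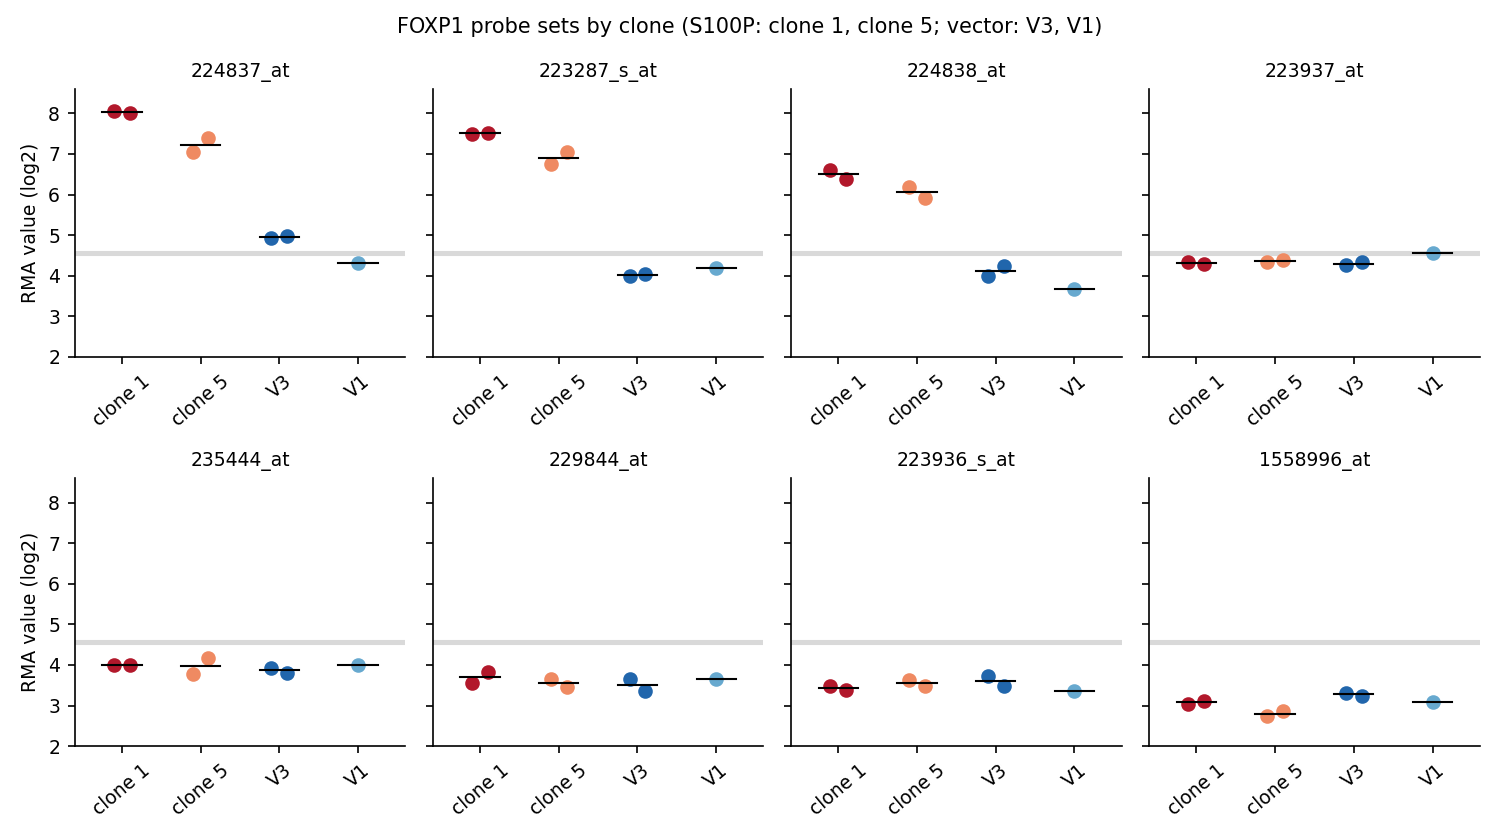
The log2 value of each FOXP1 probe set (panels) on each array (points) by clone, S100P clones left of vector clones, with black lines for clone means and a grey band for the range of array medians, 4.51 to 4.58. In 3 panels the clone 1 and clone 5 points lie at least 1.69 above the vector points, and in 5 panels no point rises above the band and the arms overlap.

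The 5 other FOXP1 probe sets lay between 2.73 and 4.56, and no value exceeded the median of its array. Probe set 223937_at had 4.34 and 4.30 on clone 1 and 4.34 and 4.39 on clone 5, against 4.26 and 4.34 on V3 and 4.56 on V1. Probe set 1558996_at had 3.05 and 3.10 on clone 1 and 2.73 and 2.86 on clone 5, against 3.32 and 3.24 on V3 and 3.08 on V1. The arms overlapped at all 5. Differences between the arms were -0.06 at 223937_at, 0.06 at 235444_at, 0.06 at 229844_at, -0.01 at 223936_s_at and -0.27 at 1558996_at. The widest reach of their 95% intervals was -0.54 to 0.39. That the FOXP1 probe sets disagree was part of how they were chosen, so the contrast with the first 3 is a description, and which transcripts each one detects was not tested.

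The 2 S100P clones differed in FOXP1. This contrast is not the one FOXP1 was chosen by, though it uses the same 4 S100P arrays. Clone 5 was lower than clone 1 at 224837_at by 0.81 log2 units, or 1.75-fold (SE 0.12, 95% interval -1.10 to -0.52, limma adjusted p = 0.0244). At 223287_s_at it was lower by 0.62, or 1.54-fold (SE 0.12, 95% interval -0.90 to -0.34, limma adjusted p = 0.0494). At 224838_at the difference was -0.44 (SE 0.14, 95% interval -0.77 to -0.11), which did not pass (limma adjusted p = 0.195). In all, 2 of 8 FOXP1 probe sets passed, and 2.19% of all probe sets tested did. Both have a mean at or above the median of all probe sets, 223287_s_at only through its S100P arrays, since its vector arrays were dim. A separate fit of such bright probe sets gave 2495 calls, against 1195 in the fit over all. These are counts of different fits, so they do not give the share of bright probe sets called in the fit over all. At all 3 probe sets both clone 1 arrays stood above both clone 5 arrays. The 5 dim probe sets differed by -0.28 to 0.12, and none passed. Both calls were lost, with adjusted p of at least 0.0982 for 224837_at, on leaving out a single array from among the 6 of clones 1, 5 and V3, a setting with 2 residual degrees of freedom in which 0 probe sets of all passed (4468 to 11537 had an unadjusted p under 0.05).

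Between arrays of clone 5 the probe sets disagreed in direction. Array b was above array a by 0.33 at 224837_at and by 0.31 at 223287_s_at, and array a was above array b by 0.27 at 224838_at. Arrays of clone 1 differed by 0.05, -0.02 and 0.23, a minus b, at the same probe sets. At 224838_at the clone means differed by more than either pair of arrays did, though not enough to pass.

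Set beside the vector clones, both S100P clones were higher. Clone 1 minus the vector clones was 3.39 at 224837_at, 3.40 at 223287_s_at and 2.61 at 224838_at. Clone 5 minus the vector clones was 2.58, 2.79 and 2.17 at the same 3 probe sets. These values share the vector arrays and repeat the comparison that FOXP1 was chosen by, so they carry no test.

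The vector clones were compared in the same way, and their difference was not tested against that between the S100P clones. V1 was lower than V3 at 224837_at by 0.63 (SE 0.15, 95% interval -0.99 to -0.28), just short of the threshold (limma adjusted p = 0.0562). At 224838_at V1 minus V3 was -0.45 (SE 0.17, adjusted p = 0.198), and at 223287_s_at it was 0.18 (SE 0.14, adjusted p = 0.594). None of the 8 FOXP1 probe sets passed here by limma with Benjamini-Hochberg adjustment, where 5.85% of all probe sets passed. An unadjusted p under 0.05 was found at 3 of the 8, and at 10883 of all 54613 probe sets. V1 has 1 array and is assumed to vary like the other clones. The order of clone means was clone 1, clone 5, V3, V1 from high to low at 224837_at and 224838_at. At 223287_s_at V1 stood above V3, and these neighbours in the order did not differ beyond their spread.

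A measure of RNA quality followed part of that order. The 3' minus 5' signal of ACTB was 0.53 and 0.44 on clone 1 and 0.29 and 0.27 on clone 5, against 0.28 and 0.32 on V3 and 0.18 on V1. For GAPDH the same measure was 0.06 to 0.08 on S100P arrays and 0.01 to 0.14 on vector arrays. The part of RNA quality, or of the marker differences above, in the FOXP1 step between clone 5 and clone 1 was not tested.

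**Figure D2:**
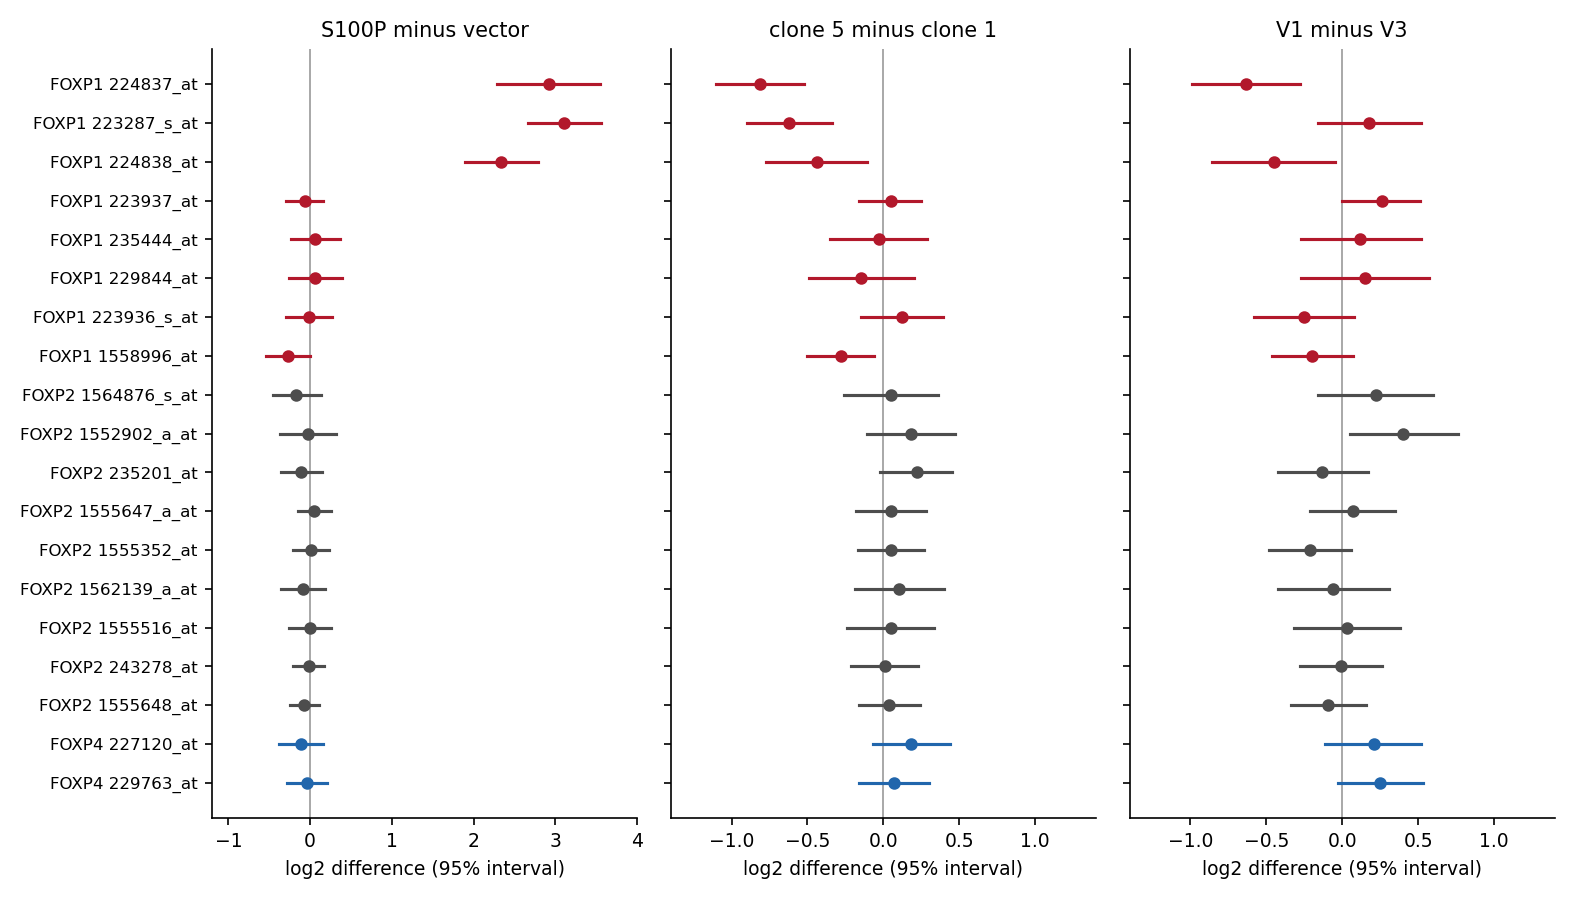
Log2 differences with 95% intervals for all 19 FOXP probe sets, in 3 panels, S100P arm against vector arm, clone 5 against clone 1, and V1 against V3. The 3 FOXP1 probe sets with 2.34 to 3.11 between the arms are also the 3 lowest in clone 5 minus clone 1, and the FOXP2 and FOXP4 differences between the arms lie between -0.17 and 0.05.

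FOXP2 showed no detectable difference between the arms at any of its 9 probe sets, and 8 of the 9 were dim on all arrays. The exception, 1564876_s_at, had 4.79 and 4.62 on clone 1 and 4.64 and 4.87 on clone 5, against 4.69 and 4.94 on V3 and 5.03 on V1. It averaged 4.73 ± 0.12 on S100P arrays and 4.89 ± 0.18 on vector arrays, and the arms overlapped. Its difference was -0.17 (95% interval -0.46 to 0.13, limma adjusted p = 0.725). The other 8 lay between 2.52 and 3.66, and differences over all 9 ran from -0.17 to 0.05 with intervals within -0.46 to 0.32. By limma 0 of 9 passed, 0 had an unadjusted p under 0.05, and 1.12% of all probe sets passed.

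Between clones FOXP2 also passed nowhere. Clone 5 minus clone 1 was 0.01 to 0.22 over the 9 probe sets (lowest limma adjusted p = 0.383, 0 with an unadjusted p under 0.05). V1 minus V3 was -0.21 to 0.40 (lowest limma adjusted p = 0.195), and 1 probe set, 1552902_a_at, had an unadjusted p under 0.05. That probe set had 3.28 and 3.33 on clone 1 and 3.33 and 3.64 on clone 5, against 3.20 and 3.33 on V3 and 3.66 on V1. The single high array of clone 5 and the V1 array were alike there, and the values are dim.

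FOXP4 stood above the median of every array at 227120_at, and its arms overlapped. The values were 6.32 and 6.25 on clone 1 and 6.56 and 6.37 on clone 5, against 6.32 and 6.49 on V3 and 6.61 on V1. The mean was 6.38 ± 0.13 on S100P arrays and 6.47 ± 0.15 on vector arrays. The difference was -0.11 (95% interval -0.38 to 0.16, limma adjusted p = 0.831), an interval that leaves out a change of the size seen at 3 FOXP1 probe sets. Clone 5 minus clone 1 was 0.18 (adjusted p = 0.497) and V1 minus V3 was 0.21 (adjusted p = 0.483). The dim 229763_at gave 4.29, 4.30, 4.44 and 4.28 on S100P arrays, against 4.21, 4.32 and 4.52 on vector arrays, with a difference of -0.04 (95% interval -0.28 to 0.20, adjusted p = 0.945). Its arms overlapped as well, and clone 5 minus clone 1 was 0.07 (adjusted p = 0.793).

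**Figure D3:**
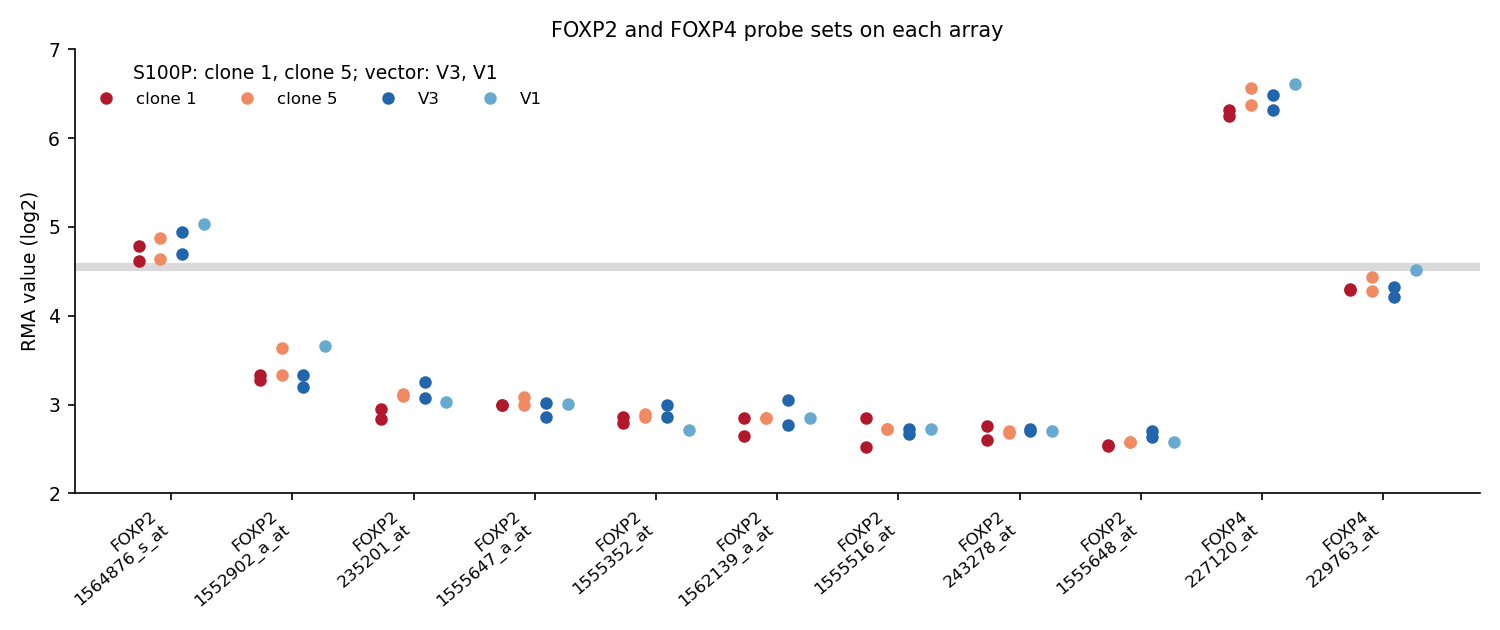
Log2 values of the FOXP2 and FOXP4 probe sets on the 7 arrays, clones 1 and 5 left of V3 and V1, with the grey band for the range of array medians. Only FOXP2 1564876_s_at and FOXP4 227120_at lie above the band on all arrays, and in no probe set do the arms separate.

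The genes around FOXP1 were set beside it. In gene order the 4 measured neighbours on one side are LMOD3, FRMD4B, MITF and SAMMSON, and on the other FOXP1-AS1, EIF4E3, GPR27 and PROK2. FOXP1-AS1, an antisense RNA annotated within FOXP1, had 3.14, 3.14, 3.16 and 3.12 on S100P arrays, against 3.14, 2.95 and 3.24 on vector arrays. It was dim throughout, with a difference of 0.02 (95% interval -0.21 to 0.24, limma adjusted p = 0.971). Over the 8 neighbours, differences between the arms ran from -0.10 to 0.36, and by limma 0 of their 18 probe sets passed (0 with an unadjusted p under 0.05). Only MITF and GPR27 were above the median on all arrays, so for the other 6 a change could be missed.

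MITF, the transcription factor that directs melanocyte development, had the difference of 0.36 (SE 0.25, adjusted p = 0.675). It had 8.80 and 8.66 on clone 1 and 7.93 and 7.89 on clone 5, against 7.66 and 7.91 on V3 and 8.22 on V1. Only clone 1 stood above the vector arrays. Clone 5 minus clone 1 was -0.81 (SE 0.11, limma adjusted p = 0.0189), a call that was lost on leaving out a single array from among the 6 of clones 1, 5 and V3. Of the 1195 probe sets that passed in this contrast 876 were lower in clone 5, as FOXP1 and MITF were. GPR27, an orphan receptor gene, had a difference of 0.03 (adjusted p = 0.955).

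**Figure D4:**
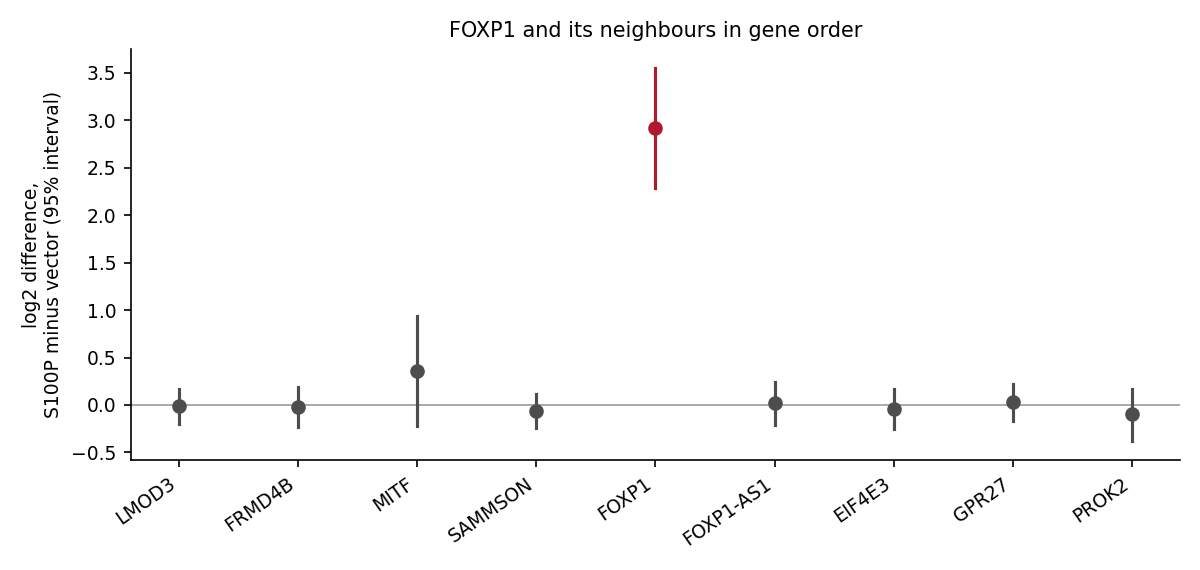
Log2 difference, S100P minus vector, with its 95% interval for FOXP1 at 224837_at and for 4 measured genes on either side in gene order. FOXP1 stands at 2.92, and the 8 neighbours lie between -0.10 and 0.36.

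Other genes had nearly the same pattern over the arrays as FOXP1 at 224837_at. Likeness was the Pearson r over the 7 arrays among 819 genes with an SD of at least 0.5, and it is a description, since the arrays fall into 2 arms and the likest genes were picked for it. The 5 highest were ARID5B (r = 0.9958), RAB27B (0.9944), DSC2 (0.9944), CD55 (0.9916) and CCDC18-AS1 (0.9908). ARID5B, a DNA-binding coactivator, had 9.69 and 9.69 on clone 1 and 9.20 and 9.20 on clone 5, against 8.21 and 8.27 on V3 and 7.89 on V1. RAB27B, a GTPase of vesicle secretion, had 10.62 and 10.46 on clone 1 and 9.33 and 9.28 on clone 5, against 6.15 and 6.14 on V3 and 5.78 on V1. Both share with FOXP1 the step between the S100P clones and the lower V1. DSC2, a desmosomal cadherin, had clone 5 minus clone 1 at -0.55, and CD55, which shields cells from complement, had -0.52.

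The 5 of lowest r were GPRC5B (-0.9874), ANPEP (-0.9859), FKBP11 (-0.9858), LIMA1 (-0.9858) and CYB5R2 (-0.9848). GPRC5B, an orphan receptor, had 5.82 and 5.56 on clone 1 and 5.96 and 5.79 on clone 5, against 7.45 and 7.35 on V3 and 7.78 on V1. ANPEP, a cell-surface aminopeptidase, had 8.51 and 8.54 on clone 1 and 8.93 and 9.12 on clone 5, against 9.90 and 10.06 on V3 and 10.26 on V1. In both the order of the clone means is that of FOXP1 turned round. LIMA1, an actin-binding protein, was 1.28 lower on S100P arrays, and its V1 and V3 clones differed by 0.03.

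Of 41 other forkhead genes 36 were measured, and none passed between the arms by limma, in either direction (5 had an unadjusted p under 0.05). Of all genes 1.03% passed as higher and 0.526% as lower. The median difference of the list was 0.01, against -0.00 for all genes, and 20 of the 36 were above the median on all arrays. FOXN3, a checkpoint-linked forkhead repressor, had 7.80 and 7.81 on clone 1 and 7.85 and 7.40 on clone 5, against 7.22 and 7.35 on V3 and 5.74 on V1. Its difference of 1.03 (SE 0.38, limma adjusted p = 0.321) rests on V1 and was 0.43 without it. FOXA1, a pioneer factor of endoderm, had 3.27 and 3.58 on clone 1 and 3.65 and 3.54 on clone 5, against 4.94 and 4.59 on V3 and 3.78 on V1. Its difference was -0.87 (SE 0.27, adjusted p = 0.222), and it depended on the vector clone. Without V1 it passed, at -1.25 (adjusted p = 0.00671), and without clone V3 it was -0.27 (adjusted p = 0.504).

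Between clones 2 of the 36 forkhead genes passed in clone 5 minus clone 1 and 5 of 36 in V1 minus V3, beside 2.19% and 5.85% of all probe sets, and these were named after their values were seen. The shares are over all probe sets, while each gene is counted at its probe set of highest mean. No share over genes was made for these contrasts, so nothing about the list is read from the counts. Clone 5 was higher than clone 1 at FOXM1, a factor of mitotic gene expression, by 0.48 (limma adjusted p = 0.0433), and lower at FOXO3, a factor restrained by AKT, by 0.62 (adjusted p = 0.0194). V1 was lower than V3 at FOXN3 by 1.54 (adjusted p = 0.00667) and at FOXA1 by 0.99 (adjusted p = 0.0283). It was higher at FOXM1 by 0.89, at FOXF2 by 0.85 and at FOXC2 by 0.67 (adjusted p = 0.00669, 0.017 and 0.0451). Leaving out any 1 of the 6 arrays of clones with 2 arrays left no call in clone 5 minus clone 1. In V1 minus V3 no probe set passed without 1 array of clone 1 or V3, and 909 passed without either array of clone 5.

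The partners through which FOXP proteins repress, among them the NuRD deacetylase complex and the CTBP corepressors, were looked at next. Of 24 listed 21 were measured, 17 of them above the median on all arrays, and 0 passed by limma in either direction (6 with an unadjusted p under 0.05), with a median difference of -0.13. CHD3, a NuRD remodeller, had the highest difference at 0.39 (SE 0.13, limma adjusted p = 0.252). The other NuRD members listed ran from -0.35 at GATAD2B to 0.05 at HDAC1, most of them below 0. NFATC2, which pairs with FOXP proteins in T cells, had the lowest at -0.41 (SE 0.17, adjusted p = 0.377). Over all 68 probe sets of the list 0 passed as well (13 with an unadjusted p under 0.05).

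Genes reported as FOXP1 or FOXP2 targets in other cells gave 21 measured of 22, with 0 passing by limma (2 with an unadjusted p under 0.05) and a median difference of -0.00. At 11 of the 21 the signal was dim on all arrays, so for these a change could be missed. SRPX2, a target of FOXP2 in neurons, had 4.75, 4.68, 5.02 and 4.61 on S100P arrays, against 4.11, 4.35 and 4.54 on vector arrays. The lowest S100P array, at 4.61, stood just above the highest vector array, at 4.54. All S100P arrays exceeded all vector arrays at 6.74% of the probe sets tested. The SRPX2 difference of 0.42 (SE 0.16, limma adjusted p = 0.34) did not pass. VLDLR, a reelin receptor, had a difference of 0.47 (SE 0.34, adjusted p = 0.695), and it was -0.05 without V1, where it had 3.58.

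Over all 47 probe sets of the target list, 0 passed as higher and 1 as lower, beside 1.12% of all probe sets in either direction, so a single call is no result about the list. It belongs to MET, the hepatocyte growth factor receptor, and was singled out after its value was seen. MET 213816_s_at had 4.65 and 5.00 on clone 1 and 4.80 and 4.75 on clone 5, against 5.56 and 5.40 on V3 and 5.87 on V1. It was lower by 0.84 on S100P arrays (SE 0.15, limma adjusted p = 0.0441), and the other 3 MET probe sets had -0.37, -0.66 and -0.65 without passing (adjusted p = 0.207, 0.13 and 0.189). The call was lost on leaving out a single array from among the same 6 (clones 1, 5 and V3; adjusted p = 0.0511 to 0.169), with the difference at -0.92 to -0.76.

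Regulators of alternative exons were listed because FOXP1 is spliced into isoforms and its probe sets disagree. Of 17 listed 16 were measured, and none passed by limma at the probe set of highest mean (1 with an unadjusted p under 0.05), with a median difference of -0.06. CELF1 had the highest difference at 0.35 (SE 0.10, limma adjusted p = 0.174), and PTBP2 the lowest at -0.29 (SE 0.16, adjusted p = 0.54). Over all 72 probe sets of the list 1 passed, a share near the 1.12% of all probe sets. It belongs to MBNL2, an RNA-binding splicing regulator singled out after its value was seen.

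MBNL2 232138_at had 7.56 and 7.52 on clone 1 and 7.70 and 7.51 on clone 5, against 6.44 and 6.66 on V3 and 6.70 on V1. It was 1.95-fold higher on S100P arrays, a difference of 0.96 (SE 0.11, limma adjusted p = 0.00877), and passed without any 1 array. Over all 16 alternatives the call was kept in 15 and lost in 1. Clone 5 minus clone 1 was 0.07 (adjusted p = 0.842). The other 4 MBNL2 probe sets had differences of -0.01 to -0.40, and none passed.

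Of 12 genes of islet alpha cells, where FOXP factors act in the mouse, 8 were measured and 5 were dim on all arrays. None passed between the arms by limma (0 with an unadjusted p under 0.05), and differences ran from -0.08 at IRX2 to 0.07 at IRX1, both homeobox genes. The median difference was -0.01.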

How the data were processed

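RNA of 7 arrays was read from the deposited table. The authors had made its values with RMA (background correction, normalization and summary of probes), per the submitters' processing notes, and the deposited values were read as log2 from their range. No source names the RMA version or says whether 1 run took in all arrays. Detection calls were not used, and precision is limited by the number of arrays.

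The table held 54675 probe sets, 62 of them controls and 54613 tested. In the platform annotation 41091 of these had 1 gene symbol, 1801 several and 11721 none, and 41037 matched a current gene by Entrez number with 0 changed symbols. For counts over genes, 1 probe set stood for each gene, that with the highest mean. Promoter windows came from RefSeq (GRCh38.p14), and all 3 FOXP genes matched by symbol.

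In R 4.3.3, models were fitted with limma 3.58.1, using statmod 1.5.0. The arms were fitted with the clone as a random block (consensus correlation 0.287). Single clones were compared in a fit with 4 clones as fixed effects and 3 residual degrees of freedom. In both fits p-values were two-sided and adjusted by Benjamini-Hochberg over all probe sets, with a threshold of 0.05. The fits were tested on simulated data with known changes. Figures used matplotlib 3.10.9.

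Members and gene lists were chosen with earlier results of these data known. Named by rule were all FOXP probe sets, S100P, the 5 likest genes each way, 4 neighbours on each side and, per list, up to 4 passing members or the 2 of largest difference. Alternatives covered normalization, dim probe sets, the clone block and left-out arrays and clones.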

Additional observations from a re-analysis of the deposited data

Results flagged for a closer look

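Clone 5 and clone 1, both labelled S100P overexpressing, differed in FOXP1 by the test of the difference itself. Clone 5 minus clone 1 was -0.81 at 224837_at and -0.62 at 223287_s_at (limma adjusted p = 0.0244 and 0.0494).

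In 4 of 19 FOXP probe sets, 1 of the 4 S100P arrays stood apart from the other 3. The gap, divided by the range, exceeded Dixon's 95% critical value for groups of 4. For normally spread values without ties, chance flags about 1 in 20 such groups. Ties occur here, so that rate is no background for the 4 of 19. The ratio was 0.859 at FOXP2 1552902_a_at, where clone 5 array b was high, and 0.926 at FOXP2 1555647_a_at, where clone 5 array a was high. It was 1.0 at FOXP2 1562139_a_at, where clone 1 array b was low at 2.65 and the other 3 S100P arrays all had 2.85. At FOXP4 229763_at it was 0.905, where clone 5 array a was high. All 4 probe sets were dim on all arrays.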

How the results depend on the processing

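Over 16 alternatives the FOXP1 difference between the arms stayed above 0 at the 3 high probe sets, from 2.41 to 3.31 at 224837_at, 2.83 to 3.44 at 223287_s_at and 2.05 to 2.62 at 224838_at. Probe sets passing between the arms were 611, 1103 with no clone block, 8 with clone means, 1355 leaving out clone 5, 1675 leaving out clone V3, and 159 to 1708 leaving out 1 array (1708 without V1). With a replicate block by array letter and V1 left out, 917 passed. The letters did not pair the arrays, since deviations from the clone mean correlated at 0.0497, -0.0821 and 0.063. For clone 5 minus clone 1, 1195 passed, 2495 among bright probe sets and 0 to 1195 leaving out 1 array. For V1 minus V3, 3195 passed, 4872 among bright probe sets and 0 to 909 leaving out 1 array; without V1 it has no value.

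FOXP1 224837_at kept its call in clone 5 minus clone 1 in 4 of 10 alternatives (-0.97 to -0.64) and 223287_s_at in 3 of 10 (-0.77 to -0.47), lost also with an intensity trend (adjusted p = 0.0526). The settings that kept the calls include the fit of bright probe sets, which 223287_s_at entered only through its S100P arrays. In V1 minus V3, 224837_at passed with quantile normalization (-0.69, adjusted p = 0.0319) and among bright probe sets (adjusted p = 0.0196). The dim probe sets have no value there. Signs turned in the following cases, none of them passing a test where one was made. FOXP1 differences between the arms, untested, ran from -0.22 to 0.04 at 223937_at, -0.02 to 0.14 at 235444_at, -0.03 to 0.15 at 229844_at and -0.11 to 0.14 at 223936_s_at.

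Between the arms, leaving out clone 1 gave 0.13 at FOXP2 1552902_a_at, 0.02 at FOXP4 227120_at, 0.04 at FOXP4 229763_at and -0.16 at S100P. The replicate block gave 0.13, 0.06, -0.19 and -0.05 at 1552902_a_at, 229763_at, S100P and VLDLR. Leaving out 1 array gave -0.12 to 0.13 at 1552902_a_at, -0.09 to 0.06 at 229763_at, -0.19 to 0.49 at S100P and -0.05 to 0.72 at VLDLR. In clone 5 minus clone 1 it gave -0.23 to 0.17 at FOXP1 235444_at, -0.07 to 0.17 at FOXP2 1564876_s_at and -0.01 to 0.15 at FOXP4 229763_at, and in V1 minus V3 0.00 to 0.30 at FOXP1 229844_at. The cause was not tested.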
